A study of Mus musculus with 84 samples.

Results

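RNA sequencing of bulk tissue was used to compare the aorta with the epididymal fat pad in lean mice. The comparison rests on 3 aorta libraries and 3 epididymal fat libraries, which are 6 of the 84 libraries made from 7 tissues of 12 mice. They were chosen by the genotype, diet and tissue named in the labels, and by no measured value. All 6 came from WT mice on a normal diet (ND), dissected after 20 weeks, and mice 1, 2 and 3 each gave both tissues. The other mice were WT mice on a high-fat diet (HFD), ob/ob mice on ND and ob/ob mice on HFD, with 3 mice in each group. The ob/ob mouse carries a nonsense mutation in the leptin gene and makes no working leptin, so it becomes obese on either diet. The aorta and fat libraries of these groups, and the heart and skeletal muscle libraries of the WT ND mice, served to show where the comparison changed. The labels do not say which stretch of the aorta was dissected, or whether the fat around it was left on.

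The wall of the aorta is built of smooth muscle cells between sheets of elastic fibre, lined by endothelium and wrapped in connective tissue and perivascular fat. In the mouse, the fat around the thoracic aorta is known to resemble brown fat, whose adipocytes burn fatty acids in dense mitochondria and release the energy as heat through the uncoupling protein UCP1. Epididymal fat is the large visceral white depot of male mice, which stores triglyceride in single large droplets and secretes leptin.

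The 6 libraries held between 12771105 and 13843248 counts assigned to genes, and 20507 to 23032 genes had at least 1 count. Both tissues held the markers of their labels, and the aorta held those of adipocytes too. Adiponectin (Adipoq), made by all mature adipocytes, stood at 1812, 1573 and 2354 CPM (counts scaled to library size and, by the TMM method, to composition) in the aortas of mice 1, 2 and 3, against 4954, 6044 and 4652 CPM in their epididymal fat. Smooth muscle myosin (Myh11) stood at 400, 162 and 237 CPM in aorta, against 36.2, 29.6 and 20.8 CPM in fat. None of 12 markers of the epididymal epithelium had enough counts to be tested, and 9 of the 12 were at 0 in all 3 fat libraries, as were 10 of the 12 in all 3 aorta libraries. The mitochondrial genome took 20.7% to 21.5% of the counts in aorta and 4.21% to 5.48% in fat.

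The aorta library of mouse 2 stood apart from the other two. The summed level of 10 cardiac muscle markers was 321, 1158 and 417 CPM in the aortas of mice 1, 2 and 3, against 13.1, 14.98 and 9.61 CPM in fat. That of 16 macrophage markers was 459, 1721 and 482 CPM in aorta, against 1727, 1759 and 1618 CPM in fat. That of 11 sympathetic neuron markers was 9.65, 81.3 and 14.3 CPM in aorta, against 15.8, 13.9 and 27.7 CPM in fat. The defining genes of noradrenaline synthesis, tyrosine hydroxylase (Th) and dopamine beta-hydroxylase (Dbh), had 7.996 and 9.58 CPM in the aorta of mouse 2 and no count in the other 5 libraries. Mesothelial markers, which mark the lining of body cavities, summed to 433, 1762 and 769 CPM in aorta, against 391, 388 and 1070 CPM in fat, so the fat of mouse 3 was also high in them. Fibroblast and progenitor markers summed to 770, 1802 and 811 CPM in aorta, against 879, 796 and 871 CPM in fat. The fat library of mouse 2 stood apart in albumin (Alb), a liver gene, with 175, 1172 and 23.1 CPM in the fat of mice 1, 2 and 3. Counts with and without a single library are given below, and the part of these other cells in the results was not tested beyond that.

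**Figure D1:**
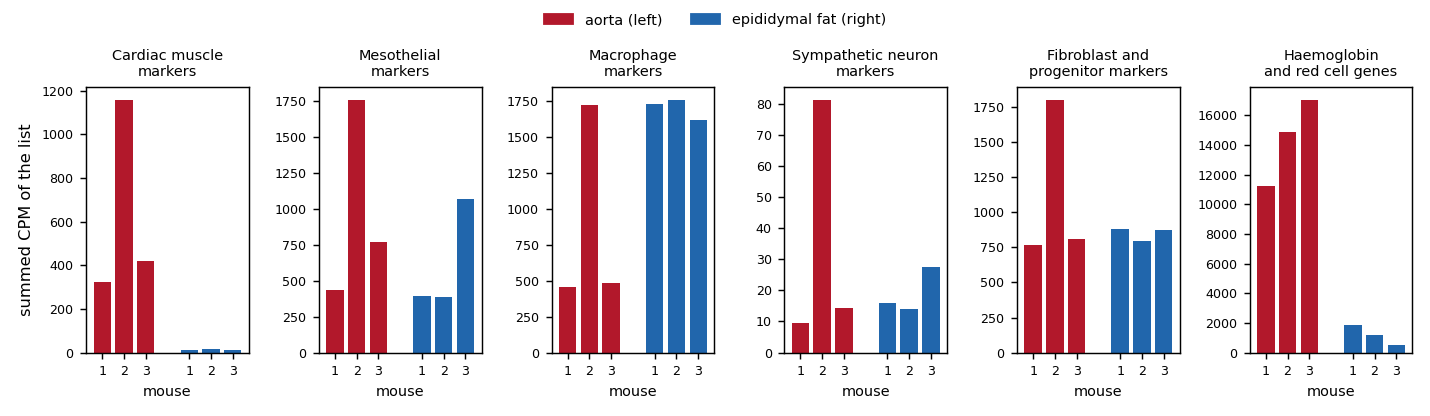
Summed CPM of 6 marker lists in each aorta library (left, red) and each epididymal fat library (right, blue) of mice 1, 2 and 3. The aorta of mouse 2 was the highest of the 3 aortas for cardiac muscle (1158 CPM), mesothelial (1762 CPM) and macrophage markers (1721 CPM). It was also the highest for sympathetic neuron (81.3 CPM) and fibroblast and progenitor markers (1802 CPM), but not for haemoglobin and red cell genes.

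Of 14893 genes tested with edgeR's quasi-likelihood test, 7735 (51.9%) differed between aorta and epididymal fat at a Benjamini-Hochberg adjusted p under 0.05. Of all genes tested, 25.6% (3819) were higher and 26.3% (3916) lower in aorta, so these shares are the background for each gene group below. The median log2 difference over all genes tested was -0.08. Scaling by library size alone, without the correction for composition, moved this median to -0.61 and the calls to 2193 higher and 7381 lower. The 10 most abundant genes took 23.8% to 26.1% of counts in aorta, against 12.95% to 14.98% in fat. Directions below are relative to the composition-corrected median, and lists whose split turns with the scaling are given with both. The values of the 3 aortas and 3 fat samples did not overlap for 61.9% of genes tested, and 51.5% were both without overlap and called. In bulk tissue, fewer cells of a type and less RNA per cell cannot be told apart. The labels name no sequencing batch, so tissue and any batch cannot be told apart either.

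By the size of the difference, the genes highest in aorta were Ucp1, sarcolipin (Sln), the receptor gene Lgr6, the atrial and ventricular myosin gene Myh6, the fatty acid binding protein Fabp3, sclerostin (Sost), Cidea and the deiodinase Dio2. Those lowest in aorta were angiotensinogen (Agt), the secreted WNT antagonist Sfrp5, Fgf13, leptin (Lep), the oxytocin receptor (Oxtr), albumin (Alb), Mest and the natriuretic peptide clearance receptor (Npr3). Lgr6 had 84.05, 55.3 and 85.9 CPM in aorta and no count in fat, at least 1168-fold higher against a floor of 3 counts over the 3 fat libraries (adjusted p = 3.04e-05, edgeR). Sost, which encodes a secreted WNT inhibitor known from bone, had 43.5, 11.9 and 28.2 CPM in aorta and no count in fat, at least 429-fold higher (edgeR adjusted p = 0.000529). Alb differed among the fat libraries themselves, with 13.02, 6.59 and 1.41 CPM in aorta, against 175, 1172 and 23.1 CPM in fat, where mouse 2 was far above the others. Oxtr was even within each tissue, at 0.468, 0.615 and 0.707 CPM in aorta, against 38.3, 45.2 and 39.3 CPM in fat (log2 difference -6.07 ± 0.19, SE; edgeR adjusted p = 1.31e-05).

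**Figure D2:**
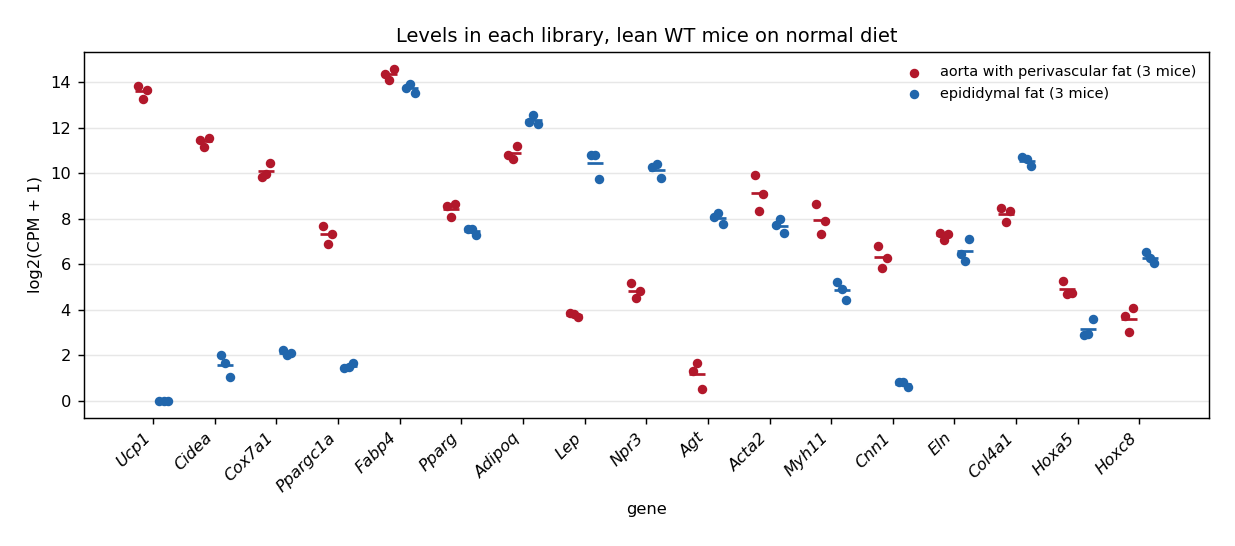
Levels of 17 named genes as log2(CPM + 1) in the 3 aorta libraries (red, left of each pair) and the 3 epididymal fat libraries (blue), with a line at the mean of each group. Ucp1 lies between 9999 and 14749 CPM in aorta and at 0 in fat, while Lep, Npr3 and Agt lie far lower in aorta than in fat, and Fabp4 is high in both tissues.

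Genes of heat production in brown fat were higher in aorta throughout. All 16 thermogenic effectors on the list were tested and all 16 were higher in aorta, with a median log2 difference of 6.03 (7.49 without the fat of mouse 2). Ucp1, which lets protons leak across the inner mitochondrial membrane (ENSMUSG00000031710, chromosome 8, 83290352 to 83298452, plus strand, GRCm38), had 14749, 9999 and 12912 CPM in the aortas of mice 1, 2 and 3 and no count in any epididymal fat library. With 417315 counts in the aortas and 0 in fat, its level was at least 195204-fold higher in aorta, against a floor of 3 counts over the 3 fat libraries (edgeR adjusted p = 1.94e-05). Per length of transcript Ucp1 reached 7673 ± 1464 FPKM in aorta (CPM divided by the length of the exons in kilobases; SD, n = 3), above Adipoq at 1385 ± 290 FPKM. The sequence before the Ucp1 start is shown because Ucp1 led the aorta side, with the core of the cyclic AMP response element, TGACG, in capitals; cyclic AMP is the messenger through which adrenergic receptors act in brown fat.
Ucp1: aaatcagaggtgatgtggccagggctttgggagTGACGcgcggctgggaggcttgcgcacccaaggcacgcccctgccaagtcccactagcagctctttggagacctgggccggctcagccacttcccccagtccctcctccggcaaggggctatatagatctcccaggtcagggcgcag

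These 180 bases are chr8:83290168-83290347, plus strand, from RefSeq on GRCm38.p6, and the capitals lie 147 to 143 bases before the RefSeq start. TGACG, searched on both strands of the 250 bases before each start, was present for 3 of the 13 thermogenic effectors with a promoter entry (Ucp1, Dio2 and Fabp3) and in 17.9% of all 27025 promoters. A match of letters describes the sequence and shows no binding.

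The other effectors followed Ucp1. Cidea, a lipid droplet protein of brown fat, had 2839, 2305 and 3021 CPM in aorta, against 3.06, 2.19 and 1.05 CPM in fat (log2 difference 10.35 ± 0.45, SE; edgeR adjusted p = 1.56e-05). Dio2, which makes active thyroid hormone within the cell, had 277, 210 and 310 CPM in aorta, against 0.266, 0.205 and 0.175 CPM in fat (log2 difference 10.22 ± 0.28; edgeR adjusted p = 7.74e-06). In both genes every aorta lay far above every fat sample. Cox7a1 and Cox8b, the muscle and brown fat forms of cytochrome oxidase subunits, were higher by log2 differences of 8.37 ± 0.27 and 9.23 ± 0.44, with edgeR adjusted p of 1.31e-05 and 1.6e-05. The spread within fat was wide for 2 effectors: Elovl3, a fatty acid elongase, had 315, 193 and 93.1 CPM in aorta, against 0.0665, 9.99 and 0.117 CPM in fat. Slc27a2, a fatty acid transporter, likewise had 187, 135 and 226 CPM in aorta, against 3.46, 22.6 and 0.175 CPM in fat, and in both genes the fat of mouse 2, which was also high in albumin, was the high one. Elovl3 is abundant in liver too, at 969 ± 295 CPM (SD, n = 3, on the scale of the 21 WT ND libraries), and the part of liver RNA was not tested. Their differences still passed, at 5.91 ± 1.30 and 4.40 ± 1.11 on the log2 scale, with edgeR adjusted p of 0.00691 and 0.0124. Cpt1b, the carnitine palmitoyltransferase of muscle and brown fat, was low in absolute terms, at 17.2, 10.02 and 15.1 CPM in aorta, against 0.199, 0.137 and 0.350 CPM in fat (log2 difference 5.86 ± 0.38; edgeR adjusted p = 3.12e-05).

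The regulators of brown fat were less uniform. Of 12 listed, 11 were tested, 7 were higher in aorta, 1 was lower and 3 did not pass, with a median log2 difference of 2.18. Ppargc1a, the coactivator that drives mitochondrial biogenesis, had 208, 118 and 161 CPM in aorta, against 1.73, 1.78 and 2.21 CPM in fat (log2 difference 6.4 ± 0.28; edgeR adjusted p = 1.56e-05). Ppara, the receptor that controls fatty acid oxidation, stood at 146, 58.3 and 99.7 CPM in aorta, against 6.11, 5.61 and 5.07 CPM in fat (4.18 ± 0.34; edgeR adjusted p = 8.25e-05), and Esrra was higher by 2.12 ± 0.20 (adjusted p = 0.000148). For each of these genes the lowest aorta lay above the highest fat sample. Irf4 did not separate the tissues, with 25.02, 23.3 and 46.7 CPM in aorta, against 27.98, 33.9 and 22.6 CPM in fat. Ebf2 and Thrb did not pass either, at log2 differences of 0.19 and 0.06, while Zfp516 was the member called lower (-0.87 ± 0.29, edgeR adjusted p = 0.0353), a call lost without the aorta of mouse 1 or 3 or the fat of mouse 2 or 3. Zic1, a marker of classical interscapular brown fat, had 3 counts over the 3 aortas and 2 counts over the 3 fat samples, too few to be tested.

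Mitochondrial genes went the same way without exception in 2 lists. All 24 nuclear-encoded subunits of the respiratory chain were higher in aorta (median log2 difference 3.11), as were all 13 protein genes of the mitochondrial genome (median 2.79). Cox4i1, a core subunit of cytochrome oxidase, had 2783, 2557 and 3319 CPM in aorta, against 390, 409 and 360 CPM in fat (2.90 ± 0.19; edgeR adjusted p = 3.43e-05). The mitochondrial gene mt-Co1 had 102129, 85012 and 84769 CPM in aorta, against 17039, 19624 and 14112 CPM in fat (2.42 ± 0.34; edgeR adjusted p = 0.00082); nuclear copies of mitochondrial sequence make such counts less certain. Of 19 genes of mitochondrial fatty acid oxidation, 18 were higher and 1 lower, with a median of 2.91. Hadhb, a subunit of the trifunctional enzyme of beta-oxidation, had 3781, 2639 and 3177 CPM in aorta, against 205, 208 and 164 CPM in fat (4.05 ± 0.23; edgeR adjusted p = 2.26e-05). The exception was Cpt1a, the liver-type carnitine palmitoyltransferase, with 40.01, 61.3 and 39.5 CPM in aorta, against 126, 133 and 127 CPM in fat (-1.45 ± 0.19; edgeR adjusted p = 0.000601). Cpt1b and Cpt1a, forms of the same enzyme, thus lay on opposite sides, the muscle form higher and the liver form lower in aorta.

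**Figure D3:**
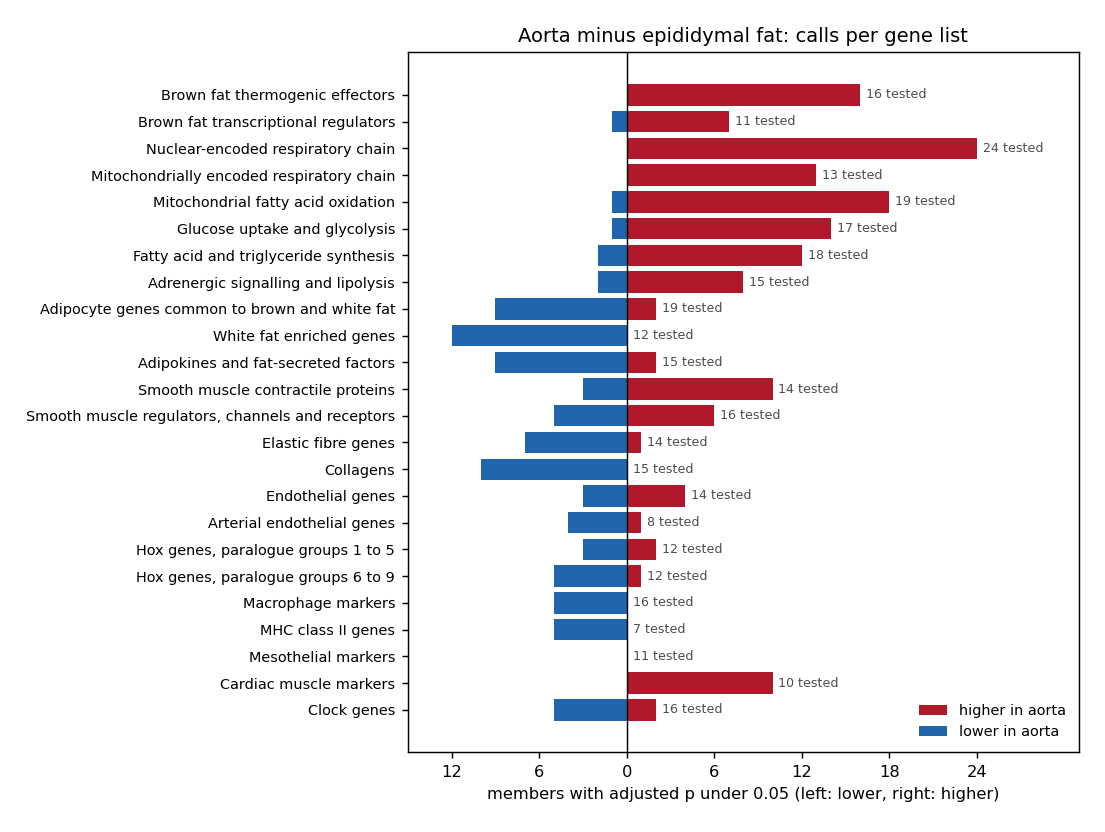
Number of members of 24 gene lists with an adjusted p under 0.05, as bars to the right (higher in aorta, red) and to the left (lower in aorta, blue), with the number tested beside each. All tested thermogenic effectors, respiratory chain subunits and cardiac markers lie on the right, and all 12 white fat genes on the left.

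Genes shared by brown and white adipocytes were split. Of 19 tested, 2 were higher in aorta, 9 were lower and 8 did not pass (median log2 difference -0.71). Without the aorta of mouse 2 the counts were 5 higher and 8 lower, and with library size scaling alone 2 higher and 13 lower. Adipoq, whose values are given above, was lower in aorta (log2 difference -1.45 ± 0.24; edgeR adjusted p = 0.00177), and per length averaged 1385 ± 290 FPKM in aorta and 3778 ± 530 FPKM in fat (SD, n = 3 each). Pparg, the master regulator of adipocyte differentiation, was higher, with 379, 267 and 407 CPM in aorta, against 189, 185 and 154 CPM in fat (1.0 ± 0.19; edgeR adjusted p = 0.00375). Fabp4, the fatty acid binding protein of adipocytes, had 20869, 17604 and 24556 CPM in aorta, against 13955, 15649 and 11881 CPM in fat; the groups did not overlap, but the difference missed the threshold (0.60 ± 0.27; edgeR adjusted p = 0.0987). Perilipins coat lipid droplets, and 2 are on the list: Plin1 had 1451, 694 and 1038 CPM in aorta, against 1921, 1855 and 1382 CPM in fat (-0.70 ± 0.29; edgeR adjusted p = 0.078), whereas Plin4 had 712, 398 and 730 CPM in aorta, against 4876, 4867 and 3305 CPM in fat (-2.83 ± 0.31; edgeR adjusted p = 0.00029). The other member called higher was Gpd1, the cytosolic glycerol phosphate dehydrogenase, at 3.0 ± 0.36 (edgeR adjusted p = 0.000402). Cebpa and Cd36 were called lower, at -0.71 and -0.90, but not with the mouse as a block (edgeR adjusted p = 0.072 and 0.057).

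White fat genes were uniformly lower in aorta: all 12 on the list passed, with a median log2 difference of -3.89. Leptin (Lep, ENSMUSG00000059201, chromosome 6, 29060220 to 29073877), the satiety hormone of white adipocytes, had 13.8, 13 and 11.8 CPM in aorta, against 1792, 1785 and 864 CPM in fat, so that fat held 115 times the aorta level (log2 difference -6.85 ± 0.37; edgeR adjusted p = 1.83e-05). Every aorta lay far below the lowest fat sample, that of mouse 3. The 80 bases before the Lep start are shown because leptin is the hormone that defines white fat, with TTGCGCAA, a full C/EBP motif, in capitals.
Lep: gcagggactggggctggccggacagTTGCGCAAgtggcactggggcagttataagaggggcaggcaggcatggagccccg

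The stretch is chr6:29060141-29060220, plus strand (RefSeq, GRCm38.p6), and the motif, which reads the same on both strands, lies 55 to 48 bases before the start. It was found in 46 of the 27025 promoters (0.17%) and, among 11 white fat genes with an entry, before Lep alone. It stood before 0 of 12 genes common to brown and white fat and 0 of 13 thermogenic effectors with an entry. Npr3, which clears natriuretic peptides and so dampens their lipolytic signal, had 35.2, 22.1 and 27.4 CPM in aorta, against 1253, 1351 and 889 CPM in fat (-5.37 ± 0.28; edgeR adjusted p = 1.81e-05). Angiotensinogen, the precursor of angiotensin, had 1.499, 2.20 and 0.442 CPM in aorta, against 271, 308 and 219 CPM in fat (Agt, -7.58 ± 0.43; edgeR adjusted p = 2.18e-05). Resistin had 202, 162 and 380 CPM in aorta, against 1224, 1263 and 1079 CPM in fat (Retn, -2.26 ± 0.32; edgeR adjusted p = 0.000937). In each of these genes the groups were apart by more than the spread within either. Ccdc80, Nnat and Mest followed, at -3.52 ± 0.23, -4.66 ± 0.41 and -5.92 ± 0.36, while the smallest difference on the list was that of dermatopontin (Dpt, -0.71 ± 0.23; edgeR adjusted p = 0.0314).

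Among 18 genes for factors secreted by fat, 15 were tested, 9 were lower in aorta, 2 were higher and 4 did not pass (median -1.45). The 2 higher ones were Nampt, an enzyme of NAD synthesis that is also secreted, and Nrg4, a neuregulin linked to brown fat. Nampt had 429, 362 and 347 CPM in aorta, against 93.8, 91.3 and 70.4 CPM in fat (2.15 ± 0.17; edgeR adjusted p = 6.93e-05). Nrg4 had 132, 86.9 and 136 CPM in aorta, against 65.4, 57.5 and 43.1 CPM in fat (1.10 ± 0.22; edgeR adjusted p = 0.00475). Both pairs of groups were without overlap. Complement factor D (Cfd, adipsin) did not separate the depots, with 3165, 3348 and 4869 CPM in aorta, against 5215, 5711 and 3765 CPM in fat (-0.37 ± 0.27; edgeR adjusted p = 0.281).

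Genes of fatty acid and triglyceride synthesis were mostly higher in aorta, with 12 of 18 higher, 2 lower and 4 not passing (median log2 difference 1.12). Only 1 was lower without the aorta of mouse 2 or 3 or the fat of mouse 1 or 2. Fatty acid synthase (Fasn) had 11964, 4076 and 5559 CPM in aorta, against 1656, 1413 and 1351 CPM in fat (2.29 ± 0.41; edgeR adjusted p = 0.00278), with mouse 1 well above the other aortas. Elovl6, which elongates its product, was far more even, at 583, 353 and 396 CPM in aorta, against 22.7, 22.4 and 21.96 CPM in fat (4.31 ± 0.23; edgeR adjusted p = 1.83e-05). The stearoyl-CoA desaturase Scd1 was among the most abundant transcripts of both tissues and showed no difference that passed, with 28439, 15096 and 21580 CPM in aorta, against 17684, 23122 and 20650 CPM in fat (0.08 ± 0.32; edgeR adjusted p = 0.845). Srebf1, a transcription factor of lipogenesis, was lower in aorta although most genes of the list were higher (-0.90 ± 0.20, edgeR adjusted p = 0.00804).

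Glucose uptake and glycolysis showed 14 of 17 genes higher in aorta, 1 lower and 2 that did not pass (median 1.75); none was lower with the mouse as a block or without any one library other than the fat of mouse 3. Aldolase A had 4637, 2570 and 2853 CPM in aorta, against 893, 864 and 747 CPM in fat (Aldoa, 2.01 ± 0.27; edgeR adjusted p = 0.000694). The 2 lactate dehydrogenase subunits differed in size: Ldhb, the heart form, was higher by 3.77 ± 0.18 (edgeR adjusted p = 1.6e-05) and Ldha, the muscle form, by 1.31 ± 0.19 (edgeR adjusted p = 0.00105). The insulin-responsive transporter Slc2a4 did not pass (0.58 ± 0.23; edgeR adjusted p = 0.0647). In creatine metabolism 4 of 7 tested genes were higher and 1 lower (3 and 3 with library size scaling alone), and the 2 most abundant, the brain-type creatine kinase Ckb and the transporter Slc6a8, did not pass, at log2 differences of 0.13 and -0.12. The higher members included the muscle forms Ckm and Ckmt2, of which Ckmt2 was highest in the aorta of mouse 2, at 7.03, 29.5 and 8.40 CPM in aorta.

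Adrenergic signalling, which drives lipolysis and heat production, was mixed, with 8 of 15 genes higher, 2 lower and 5 that did not pass (median 0.70). The split depended on the scaling, at 5 higher and 6 lower with library size alone and 8 higher and 0 lower with DESeq2 size factors. The 2 lower calls were also lost when the aorta of mouse 3 or the fat of mouse 1 or 2 was left out, and 1 was lost without the fat of mouse 3. The receptor genes differed among themselves. The beta-1 receptor gene Adrb1 had 9.09, 4.57 and 12.5 CPM in aorta, against 2.19, 2.74 and 1.46 CPM in fat (2.04 ± 0.41; edgeR adjusted p = 0.00463). The alpha-1A receptor gene Adra1a had 77.7, 47.6 and 64.2 CPM in aorta, against 11.7, 11.2 and 8.51 CPM in fat (2.60 ± 0.22; edgeR adjusted p = 8.55e-05). The beta-3 receptor gene Adrb3, typical of adipocytes, lay the other way, with 313, 134 and 299 CPM in aorta, against 580, 422 and 441 CPM in fat (-0.95 ± 0.32; edgeR adjusted p = 0.0386), a call that was lost when any library other than the aorta of mouse 2 was left out. The lipases Pnpla2, Lipe and Mgll, which act in sequence on triglyceride, did not pass, at 0.18 ± 0.35, -0.72 ± 0.29 and -0.66 ± 0.28. Prkar2b was called higher and Pde3b lower, at 0.70 and -0.56, but not with the mouse as a block (edgeR adjusted p = 0.068 and 0.078).

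Smooth muscle genes set the vessel wall apart, though not as one block. Of 14 contractile genes, 10 were higher in aorta, 3 were lower and 1 did not pass (median 2.03). Calponin (Cnn1) had the largest difference on the list, with 111, 55.97 and 76.2 CPM in aorta, against 0.798, 0.753 and 0.524 CPM in fat (6.87 ± 0.35; edgeR adjusted p = 1.66e-05). Smooth muscle actin (Acta2) was the most abundant per length, at 348 ± 186 FPKM in aorta and 117 ± 24 FPKM in fat (SD, n = 3 each), and had 981, 328 and 551 CPM in aorta, against 210, 251 and 165 CPM in fat (1.57 ± 0.38; edgeR adjusted p = 0.0109). Myh11, given above, was higher by 3.21 ± 0.37 (edgeR adjusted p = 0.000359) and Tagln by 3.63 ± 0.26 (edgeR adjusted p = 4.78e-05). For all 4 genes the lowest aorta, that of mouse 2, lay above the highest fat sample. The members lower in aorta were Mylk, Cald1 and Synpo2; the actin-binding Synpo2 had 62.03, 45.4 and 38.8 CPM in aorta, against 465, 508 and 273 CPM in fat (-3.09 ± 0.29; edgeR adjusted p = 0.000143). Itga8, the alpha-8 integrin of vascular smooth muscle, had 151, 61.7 and 95.7 CPM in aorta, against 0.798, 1.09 and 0.641 CPM in fat (6.92 ± 0.43; edgeR adjusted p = 2.67e-05). It belonged to a list of 16 smooth muscle regulators, channels and receptors, of which 6 were higher, 5 lower and 5 not passing (median 0.39). Myocd, the coactivator of the contractile genes, was low but higher in aorta, with 5.06, 1.93 and 3.53 CPM in aorta, against 0.266, 0.616 and 0.641 CPM in fat (2.76 ± 0.48; edgeR adjusted p = 0.00246). Notch3 and Pdgfrb, receptors of mural cells, were lower in aorta, at -1.52 ± 0.32 and -0.99 ± 0.19, with edgeR adjusted p of 0.00603 and 0.00343.

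Muscle genes of all 3 kinds are known to be driven through the CArG box, which binds serum response factor, and stretches with a match are shown for the smooth muscle myosin light chain Myl9, the cardiac genes Myl7 and Actc1 and the skeletal actin Acta1. Myl7 and Actc1 were higher in aorta and Acta1 lower, and the part of the motif in these differences was not tested. The CArG box is in capitals.
Myl9: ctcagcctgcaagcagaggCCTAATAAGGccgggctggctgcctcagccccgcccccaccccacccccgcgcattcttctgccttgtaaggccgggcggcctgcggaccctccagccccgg
Myl7: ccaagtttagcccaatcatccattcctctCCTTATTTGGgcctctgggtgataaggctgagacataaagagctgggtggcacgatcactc
Actc1: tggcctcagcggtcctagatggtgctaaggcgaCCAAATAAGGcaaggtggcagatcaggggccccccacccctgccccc
Acta1: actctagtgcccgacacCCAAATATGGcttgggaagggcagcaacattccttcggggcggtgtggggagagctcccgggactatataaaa

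In RefSeq coordinates on GRCm38.p6 these are chr2:156775284-156775404 (plus strand), chr11:5898783-5898872 (minus strand), chr2:114052876-114052955 (minus strand) and chr8:123894776-123894865 (minus strand), each written 5′ to 3′ along the gene. Searched on both strands of the 250 bases before the start, the CArG box was found for 1 of 11 smooth muscle contractile genes with an entry, 3 of 10 cardiac markers, 2 of 10 skeletal markers, 0 of 13 thermogenic effectors and 1.4% of all 27025 promoters. Absence from this window says nothing of sites further away. Myl9 itself had 368, 155 and 195 CPM in aorta, against 31.6, 21.7 and 19.9 CPM in fat (3.29 ± 0.36; edgeR adjusted p = 0.000291).

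The matrix of the vessel wall was not generally higher in aorta. Elastin (Eln), the core of the elastic sheets, had 166, 135 and 161 CPM in aorta, against 86.1, 69.99 and 140 CPM in fat, where mouse 3 was the high one and lay above the lowest aorta, so the groups overlapped (0.64 ± 0.25; edgeR adjusted p = 0.0653, and 0.031 with the mouse as a block). Of 14 elastic fibre genes, 1 was higher in aorta, 7 were lower and 6 did not pass (median -0.41), with 2 higher without the fat of mouse 3. Fibrillin-1, the scaffold of the microfibril, had 93.9, 237 and 95.7 CPM in aorta, against 423, 422 and 455 CPM in fat (Fbn1, -1.61 ± 0.36; edgeR adjusted p = 0.00769). The member higher in aorta was the microfibril-associated Mfap4 (2.24 ± 0.70; edgeR adjusted p = 0.0302), a call that was lost without the aorta of mouse 1, 2 or 3 or the fat of mouse 2. Collagens were lower, with 10 of 15 called lower, none higher and 5 not passing (median -1.77). The basement membrane collagen Col4a1 had 351, 229 and 323 CPM in aorta, against 1663, 1605 and 1274 CPM in fat (-2.33 ± 0.22; edgeR adjusted p = 0.000149), and Col15a1 differed further (-4.10 ± 0.18; edgeR adjusted p = 1.56e-05). Col1a1 did not pass (-1.06 ± 0.54; edgeR adjusted p = 0.141), its fat values being 270, 233 and 844 CPM. Of 11 tested proteoglycan and cartilage-type genes, 1 was higher and 4 were lower, or 2 higher without the aorta of mouse 2 or the fat of mouse 3; the higher one was Comp, at 13.9, 4.74 and 6.98 CPM in aorta, against 0.399, 0.616 and 1.81 CPM in fat (3.14 ± 0.61; edgeR adjusted p = 0.00402). Aggrecan (Acan) had 27 counts over the 3 aortas and none in fat, and was not tested.

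Endothelial genes did not favour either tissue: 4 of 14 were higher in aorta, 3 lower and 7 did not pass (median -0.08, the same as over all genes). With library size scaling alone the split was 1 higher and 8 lower, and 2 were higher without the aorta of mouse 3 or the fat of mouse 2. Pecam1, an adhesion molecule of all endothelium, had 210, 181 and 219 CPM in aorta, against 155, 123 and 99.6 CPM in fat (0.69 ± 0.18; edgeR adjusted p = 0.0158). Von Willebrand factor was higher by 1.06 ± 0.16 (Vwf, edgeR adjusted p = 0.00111). VE-cadherin was lower, with 60.7, 34.9 and 64.2 CPM in aorta, against 182, 148 and 120 CPM in fat (Cdh5, -1.49 ± 0.26; edgeR adjusted p = 0.00232). Of 8 arterial endothelial genes, 1 was higher and 4 were lower, or 2 lower without the aorta of mouse 1 or the fat of mouse 1 or 2, and 2 higher without the aorta or the fat of mouse 1. The higher one was the kinase Bmx, at 6.37, 6.85 and 8.66 CPM in aorta, against 1.86, 0.547 and 0.466 CPM in fat (2.93 ± 0.50; edgeR adjusted p = 0.00216), and the Notch ligand Dll4 was among the lower ones (-1.58 ± 0.36; edgeR adjusted p = 0.00826).

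Hox genes record position along the body axis, and they differed gene by gene. As lists they were not called more often than all genes tested (25.6% higher and 26.3% lower). In paralogue groups 1 to 5, 2 of 12 tested genes were higher in aorta and 3 lower; in groups 6 to 9, 1 of 12 was higher and 5 lower; none of 12 genes of groups 10 to 13 had enough counts to be tested. Hoxa5 had 37.2, 25.04 and 26.1 CPM in aorta, against 6.45, 6.57 and 11.2 CPM in fat (1.86 ± 0.27; edgeR adjusted p = 0.000956), and its neighbour Hoxa4 was higher by 1.98 ± 0.31 (edgeR adjusted p = 0.00137). Hoxc8 lay the other way, with 12.5, 7.12 and 16 CPM in aorta, against 91.5, 77.4 and 64.9 CPM in fat (-2.72 ± 0.29; edgeR adjusted p = 0.000236). Hoxd8 had 1.499, 2.55 and 3.36 CPM in aorta, against 19.1, 18.1 and 18.2 CPM in fat (-2.89 ± 0.27; edgeR adjusted p = 0.00013). Every aorta was below every fat sample for both genes. Hoxa7 did not pass (-0.27 ± 0.26; edgeR adjusted p = 0.405). Hoxa9 was the member of groups 6 to 9 called higher, at 2.44, 1.05 and 2.30 CPM in aorta, against 0.199, 0.137 and 0.350 CPM in fat (3.0 ± 0.51; edgeR adjusted p = 0.00217), while Hoxc9 had 3 counts over the aortas and 136 over the fat samples. Among 15 tested patterning factors of the mesoderm, 3 were higher in aorta and 4 lower. The split was 5 higher and 2 lower without the aorta (18 tested) or the fat (19 tested) of mouse 1. It was 5 higher without the fat of mouse 2 (19 tested) and 6 higher without the fat of mouse 3 (17 tested). More genes thus entered these tests than the 15 above. With the mouse as a block 2 were lower. The visceral fat factor Tcf21 had 0.468, 1.58 and 0.0884 CPM in aorta, against 6.91, 5.34 and 5.07 CPM in fat (-2.99 ± 0.65; edgeR adjusted p = 0.00646). Gata4 (5.36 ± 0.63), Foxc1 (1.2 ± 0.26) and Foxc2 (1.52 ± 0.39) were the higher ones, with edgeR adjusted p of 0.000397, 0.00615 and 0.014.

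Other cell types left marks in both tissues. All 10 cardiac markers were higher in aorta (median 7.89, and 9.54 without the fat of mouse 3), and of the 3 aortas that of mouse 2 was the highest for 9 of them, the exception being Nppa. The atrial light chain Myl7 had 94.4, 262 and 85.7 CPM in aorta, against 0, 0.137 and 0.466 CPM in fat (9.38 ± 0.80; edgeR adjusted p = 9.41e-05). Sarcolipin, which regulates the calcium pump in atrium and muscle, had 51.2, 137 and 44.6 CPM in aorta and no count in fat (Sln, at least 1219-fold higher; edgeR adjusted p = 0.0004). Myh6 had 11.2, 128 and 47.4 CPM in aorta and no count in fat (at least 988-fold higher; edgeR adjusted p = 0.0032). Without the aorta of mouse 2 all 10 cardiac markers still passed. Of 10 tested skeletal muscle markers, 7 were higher, but at low levels: the summed level was 39.5, 48.6 and 35 CPM in aorta, against 64.6, 68.4 and 54.4 CPM in fat, where Acta1 made up most of it with 56.5, 61.8 and 44.9 CPM in fat, against 3.37, 4.92 and 3.09 CPM in aorta.

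Immune genes were lower in aorta where they passed. Of 16 macrophage markers, 5 were lower and 11 did not pass, but all 16 were lower without the aorta of mouse 2, and 2 were lower when any of the other 5 libraries was left out. With the mouse as a block 8 were lower. Of all genes tested, 26.3% were lower in the main fit. The colony-stimulating factor receptor Csf1r had 49.8, 175 and 49.2 CPM in aorta, against 235, 223 and 235 CPM in fat (-1.34 ± 0.48; edgeR adjusted p = 0.0485). Adgre1, the F4/80 antigen, had 14.3, 55.8 and 22.1 CPM in aorta, against 57.2, 54.4 and 49.8 CPM in fat, and the groups overlapped through mouse 2 (-0.81 ± 0.44; edgeR adjusted p = 0.158). Of 7 MHC class II genes 5 were lower, 7 without the aorta of mouse 2 and 1 or 2 without any other library. T cell markers gave 1 lower of 6 tested (none without the aorta of mouse 1 or 3 or the fat of mouse 2), and 7 B cell markers none, although 1 was lower without the aorta of mouse 2 and 5 of the 7 were higher in aorta without the fat of mouse 3. No mesothelial marker of 11 passed, with 2 higher in aorta without the fat of mouse 3. The mesothelial marker Upk3b had 123, 476 and 208 CPM in aorta, against 153, 141 and 354 CPM in fat, and the groups overlapped. Haemoglobin and red cell genes, 5 of 5 higher in aorta (median 3.78), summed to 11228, 14858 and 17040 CPM in aorta, against 1864, 1162 and 506 CPM in fat; the near-identical Hba-a1 and Hba-a2 cannot be separated with certainty.

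Fibroblast and progenitor markers gave 1 higher and 3 lower of 10, or 1 lower without the aorta of mouse 1 or 3 or the fat of mouse 1, and 2 higher without the aorta of mouse 1. The higher one was Pi16, which marks adventitial fibroblasts, with 250, 711 and 248 CPM in aorta, against 49.6, 39.6 and 70.1 CPM in fat (2.92 ± 0.47; edgeR adjusted p = 0.0016). S100b, listed with Schwann cells and also known from adipocytes, had 172, 143 and 176 CPM in aorta, against 5.12, 4.45 and 1.51 CPM in fat (5.48 ± 0.40; edgeR adjusted p = 5.11e-05), whereas the myelin gene Mbp did not pass (0.09 ± 0.16; edgeR adjusted p = 0.645). Of 6 tested Schwann cell genes, 3 were higher. Of 12 markers of organs near the aorta, 10 had too few counts to be tested: the surfactant genes Sftpa1, Sftpb and Sftpc had 0 to 2 counts over the 3 libraries of each tissue, and of the 2 genes tested Star was called higher in aorta (1.38 ± 0.46; edgeR adjusted p = 0.0372, and 0.071 with the mouse as a block), although the groups overlapped. The other was Alb, given above. Of 6 thymocyte genes only Cd1d1, which adipocytes also express, had enough counts to be tested.

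Clock genes differed in part, and not more often than all genes tested, of which 51.9% were called (25.6% higher and 26.3% lower). Of 16, 2 were higher in aorta, 5 lower and 9 did not pass (median -0.26), with 9 lower under library size scaling alone. The higher ones were Nfil3 and Hlf, transcription factors of the clock output; Nfil3 had 80.9, 61.2 and 62.4 CPM in aorta, against 7.91, 9.24 and 7.17 CPM in fat (3.07 ± 0.17; edgeR adjusted p = 1.91e-05), and Hlf was higher by 2.43 ± 0.20 (edgeR adjusted p = 7.36e-05). The period genes Per1, Per2 and Per3, with Cry2 and Nr1d1, were lower; Nr1d1, a repressor of the clock loop, had 53.1, 33.7 and 59.6 CPM in aorta, against 108, 134 and 115 CPM in fat (-1.29 ± 0.22; edgeR adjusted p = 0.00204). Of 8 immediate early genes 1 passed, none without the aorta of mouse 1 or 3, 3 and 2 were lower without the fat of mouse 1 or 2, and 2 were higher and none lower without the fat of mouse 3. Fos had 25.6, 69.7 and 24.3 CPM in aorta, against 104, 67.3 and 239 CPM in fat (-1.78 ± 0.57; edgeR adjusted p = 0.0321, and 0.062 with the mouse as a block), and the groups overlapped. The hour of dissection is not given in the labels, so its part was not tested.

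The tissue difference was then set against that in the other mice, in a fit of all 24 aorta and fat libraries that tests whether aorta minus fat differs from its value in WT ND mice. It differed for 6689 of 16410 genes (40.8%) in WT HFD mice, for 4533 (27.6%) in ob/ob ND mice and for 4363 (26.6%) in ob/ob HFD mice. The 3 comparisons share the 6 WT ND libraries and so are not independent. With library size scaling alone the change in WT HFD mice was toward higher in aorta for 2614 genes and toward lower for 3885, against 3370 (20.5%) and 3319 (20.2%) with the TMM scaling; the lower shares were 13.4% and 13.2% in ob/ob ND and ob/ob HFD mice. Within each group, aorta and fat differed for 66.3% of genes in WT HFD mice (32.2% higher, 34.1% lower in aorta), 54.6% in ob/ob ND mice (27.5% and 27.1%) and 57% in ob/ob HFD mice (28.7% and 28.3%), against 56.3% in WT ND mice (27.6% and 28.6%). CPM values in these paragraphs are on the scale of the 24 libraries.

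Adipocyte genes changed sides. Among the 19 genes common to brown and white fat, 16 were higher and 2 lower in aorta in WT HFD mice, 12 higher and 2 lower in ob/ob ND mice and likewise in ob/ob HFD mice, against 3 higher and 8 lower in WT ND mice in the same fit. The test of the change itself was passed by 17 of the 19 in WT HFD mice, 13 in ob/ob ND mice and 11 in ob/ob HFD mice, each toward higher in aorta, where 20.5%, 14.3% and 13.4% of all genes passed in that direction. Adipoq had 1672, 1563 and 1453 CPM in aorta and 235, 474 and 896 CPM in fat of WT HFD mice, against 1782, 1506 and 2383 CPM in aorta and 4791, 5824 and 4589 CPM in fat of WT ND mice. The aorta values thus overlapped between diets, the fat values did not, and the difference of differences was 2.97 ± 0.43 on the log2 scale (SE; edgeR adjusted p = 2.52e-05). In ob/ob ND and ob/ob HFD mice it was 2.36 ± 0.43 and 2.20 ± 0.43, with edgeR adjusted p of 0.000524 and 0.000938. Adrb3 changed more: in ob/ob ND mice it had 160, 124 and 55.2 CPM in aorta and 3.08, 4.89 and 2.27 CPM in fat, against 308, 129 and 303 CPM in aorta and 561, 407 and 435 CPM in fat of WT ND mice (5.96 ± 0.68; edgeR adjusted p = 6.75e-06). Its change was 5.21 ± 0.64 in WT HFD mice and 5.65 ± 0.67 in ob/ob HFD mice, with edgeR adjusted p of 4.81e-06 and 7.84e-06.

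White fat genes lost part of their gap. Of the 12, 7 were lower in aorta in WT HFD mice, 4 in ob/ob ND mice and 5 in ob/ob HFD mice. In these groups 34.1%, 27.1% and 28.3% of all genes were lower. All 12 were lower in WT ND mice, and 1 was higher in WT HFD mice. The test of the change was passed toward higher in aorta by 10, 10 and 9 of the 12. Of all genes, 20.5%, 14.3% and 13.4% passed in that direction. Lep had 1418, 1416 and 2280 CPM in aorta and 2247, 3085 and 3968 CPM in fat of ob/ob ND mice, against 13.5, 12.5 and 11.9 CPM in aorta and 1733, 1720 and 852 CPM in fat of WT ND mice; the ob/ob mice make the transcript but no working hormone. Its tissue difference was thus smaller in ob/ob ND mice, the change being 5.96 ± 0.61 (edgeR adjusted p = 1.97e-06), and Npr3 (5.07 ± 0.47; edgeR adjusted p = 7.06e-07) and Fgf13 (6.22 ± 0.78; edgeR adjusted p = 1.56e-05) moved likewise. Of the 2 tissues the aorta held the larger contrast between ob/ob ND and WT ND mice: Npr3 had 732, 761.9 and 1151 CPM in aorta and 827, 1002 and 1360 CPM in fat of ob/ob ND mice, against 34.7, 21.1 and 27.7 CPM in aorta and 1212, 1302 and 877 CPM in fat of WT ND mice. For Agt the contrast lay in the fat, with 1.08, 2.28 and 1.37 CPM in aorta and 14.2, 22.6 and 19.9 CPM in fat of ob/ob ND mice, against 1.47, 2.10 and 0.447 CPM in aorta and 262, 297 and 216 CPM in fat of WT ND mice (3.97 ± 0.62; edgeR adjusted p = 0.000136). Retnla, a product of alternatively activated macrophages and adipose tissue, changed in WT HFD mice (6.66 ± 0.92; edgeR adjusted p = 1.47e-05), with 0.636, 5.14 and 11.4 CPM in fat of WT HFD mice, against 942, 836 and 636 CPM in fat of WT ND mice.

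**Figure D4:**
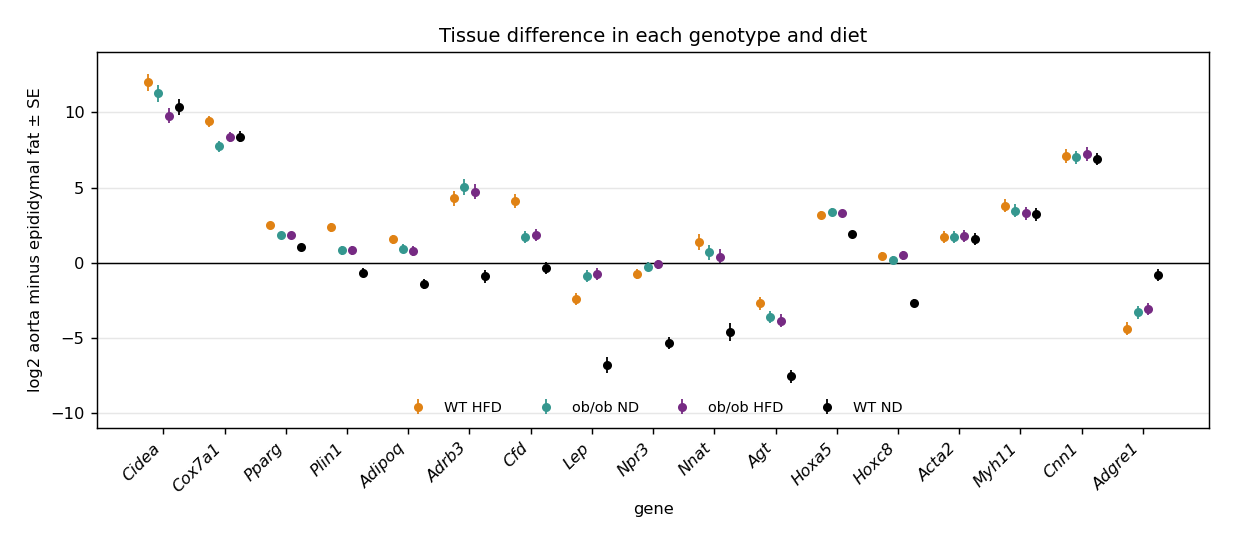
Log2 difference, aorta minus epididymal fat, with its SE, for 17 genes in WT HFD, ob/ob ND, ob/ob HFD and WT ND mice (3 mice per tissue each, fit of 24 libraries). Adipoq, Adrb3, Lep, Npr3 and Hoxc8 lie lower in WT ND mice (black) than in the other groups, while Acta2, Myh11 and Cnn1 lie together in all 4.

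Thermogenic genes were higher in aorta in every group. All 16 thermogenic effectors were higher in aorta in each of the 4 groups. The gap differed from that in WT ND mice for 10 of them in WT HFD mice (6 wider, 4 narrower). It differed for 7 in ob/ob ND mice (1 and 6) and for 6 in ob/ob HFD mice (1 and 5). Toward higher and lower in aorta, 20.5% and 20.2% of all genes passed in WT HFD mice. These shares were 14.3% and 13.4% in ob/ob ND mice and 13.4% and 13.2% in ob/ob HFD mice. Ucp1 had 7286, 4459 and 5763 CPM in aorta and 0.251, 0.161 and 0.656 CPM in fat of ob/ob ND mice, against 14507, 9575 and 13069 CPM in aorta and no count in fat of WT ND mice; because the fat level of WT ND mice was 0, no size is given for its change. Cidea changed in WT HFD mice (1.65 ± 0.64; edgeR adjusted p = 0.0444, and 0.0819 with the mouse as a block) and did not pass in the ob/ob groups, at 0.90 ± 0.64 and -0.60 ± 0.58. All 24 nuclear-encoded respiratory chain genes were higher in aorta in each group too. For 15 of them the gap was wider in WT HFD than in WT ND mice, where 20.5% of all genes passed in that direction. Myh11, Acta2 and Cnn1 showed no change that passed in any group, with values between 0.05 and 0.56 on the log2 scale. Of the 14 contractile genes, 10 were higher and 2 lower in aorta in WT HFD mice, and 11 higher and 0 lower in both ob/ob groups, against 10 higher and 3 lower in WT ND mice. Tagln had a smaller gap in ob/ob ND than in WT ND mice (-1.13 ± 0.39; edgeR adjusted p = 0.0358), a call that 8 of the 24 libraries each ended when left out.

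Endothelial genes, by contrast, moved toward the aorta in WT HFD mice. Of 14, 12 were higher and 0 lower in aorta in WT HFD mice, against 4 higher and 3 lower in WT ND mice, and 9 passed the test of the change toward higher in aorta, where 20.5% of all genes did. Of 8 arterial endothelial genes all 8 were higher in WT HFD mice, against 1 higher and 3 lower in WT ND mice, and 7 passed the test of the change. Their summed level was 65.8 to 94.3 CPM in aorta and 14.9 to 39.2 CPM in fat of WT HFD mice, against 61.3 to 77.6 CPM in aorta and 69.6 to 102 CPM in fat of WT ND mice, so the fat values did not overlap between diets. In ob/ob ND and ob/ob HFD mice 3 and 4 of the 8 passed toward higher in aorta, where 14.3% and 13.4% of all genes did. Of the 14 endothelial genes 1 and 3 passed in that direction in these ob/ob groups, and 0 toward lower.

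Some positional and immune genes changed too. Hoxc8, lower in aorta in WT ND mice, showed no tissue difference that passed in the others, at 0.44 ± 0.29, 0.17 ± 0.28 and 0.47 ± 0.28 in WT HFD, ob/ob ND and ob/ob HFD mice. It had 10.9, 14.03 and 19.1 CPM in fat of WT HFD mice, against 88.4, 74.6 and 64.03 CPM in fat of WT ND mice, and its change was 3.13 ± 0.41 (edgeR adjusted p = 8.86e-06). Hoxa5, higher in aorta in all 4 groups, changed by 1.31 ± 0.33, 1.53 ± 0.33 and 1.40 ± 0.34 in WT HFD, ob/ob ND and ob/ob HFD mice, with edgeR adjusted p of 0.00349, 0.00219 and 0.00441. Macrophage markers were lower in aorta for 13 of 16 in WT HFD mice and 12 of 16 in each ob/ob group, against 7 of 16 in WT ND mice. Those higher in aorta were 1, 1 and 2 in WT HFD, ob/ob ND and ob/ob HFD mice, against 0 in WT ND mice. Adgre1 had 40.4, 37.6 and 20.5 CPM in aorta and 698, 711 and 668 CPM in fat of WT HFD mice, against 14.1, 53.4 and 22.4 CPM in aorta and 55.3, 52.4 and 49.1 CPM in fat of WT ND mice (-3.60 ± 0.57; edgeR adjusted p = 5.65e-05). The change passed toward lower in aorta for 13 of the 16 in WT HFD mice, 8 in ob/ob ND mice and 7 in ob/ob HFD mice, where 20.2%, 13.4% and 13.2% of all genes did. Toward higher in aorta it passed for 2, 3 and 3 of the 16. The change passed for 0 of 7 B cell markers in each group, and toward lower in aorta for 1 of 7 MHC class II genes in each. The C-type lectin Clec4d changed the same way, by -8.07 ± 1.30 in WT HFD mice (edgeR adjusted p = 6.66e-05), where its fat values ranged from 73.01 to 651 CPM, against 1.44 to 5.27 CPM in fat of WT ND mice. The summed cardiac markers of aorta had medians of 43.8, 45.3 and 64.8 CPM in WT HFD, ob/ob ND and ob/ob HFD mice, against 422 CPM in WT ND mice. The spread was wide, with highest values of 272, 151 and 335 CPM, against 316 to 1109 CPM in WT ND mice, so ob/ob HFD and WT ND mice overlapped. The test of the change passed toward lower in aorta for 0, 2 and 1 of the 10 markers, and toward higher for 0.

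The aorta was also set against 2 muscular tissues of the same mice. Against heart, 7437 of 14131 genes differed (52.6%), of which 27.8% of all genes tested were higher and 24.8% lower in aorta. Against skeletal muscle 7782 of 14455 differed (53.8%; 27.3% higher and 26.5% lower). With library size scaling alone the calls were 5460 higher and 2474 lower against heart and 5491 higher and 2590 lower against skeletal muscle. Of 14 contractile genes 9 were higher and 4 lower in aorta than in heart, and of 16 thermogenic effectors 12 were higher and 1 lower. Against skeletal muscle 9 of the contractile genes were higher and 5 lower, and 13 of the thermogenic effectors were higher and 1 lower. The 16 smooth muscle regulators, channels and receptors lay mostly the other way against heart, with 4 higher and 11 lower (median log2 difference -1.30). In the comparison with skeletal muscle 6 of the 16 were higher and 2 lower (median -0.006). Cnn1 had 83.5, 43.03 and 58.2 CPM in aorta, against 1.06, 1.31 and 0.284 CPM in heart (6.12 ± 0.42; edgeR adjusted p = 8.54e-06), and was higher than in skeletal muscle by 5.28 ± 0.31 (edgeR adjusted p = 5.57e-06). Eln was higher in aorta than in both, by 1.68 ± 0.13 against heart and 2.57 ± 0.21 against skeletal muscle, with edgeR adjusted p of 1.98e-05 and 3.02e-05. Ucp1 had 11062, 7687 and 9869 CPM in aorta, against 0.675, 0 and 0 CPM in heart (15.30 ± 0.71; edgeR adjusted p = 1.19e-06), and Cidea was higher by 6.31 ± 0.21 (edgeR adjusted p = 4.33e-07). Mitochondrial genes differed by list: of 24 nuclear-encoded respiratory chain genes, 2 were higher and 2 lower than in heart (median 0.03), and of the 13 mitochondrially encoded genes 9 were lower and none higher. Of the 19 genes of mitochondrial fatty acid oxidation, 13 were higher than in heart and 1 was lower (median 0.72). Cox7a1 did not differ from heart by a margin that passed (-0.46 ± 0.20; edgeR adjusted p = 0.0897).

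The cardiac genes of the aorta were not those of the heart libraries in the same proportions. Myl7 had 70.8, 201 and 65.5 CPM in aorta, against 0.772, 0.910 and 0.189 CPM in heart (7.49 ± 0.67; edgeR adjusted p = 3.83e-05). Sln had 38.4, 105 and 34.1 CPM in aorta and no count in heart (at least 611-fold higher; edgeR adjusted p = 0.000251). Myh6 lay the other way, with 8.36, 98.4 and 36.2 CPM in aorta, against 8197, 8288 and 8227 CPM in heart (-7.43 ± 0.88; edgeR adjusted p = 0.000198). Of the 10 cardiac markers, 2 were higher in aorta than in heart, Myl7 and the atrial light chain Myl4 (6.20 ± 0.64; edgeR adjusted p = 8.94e-05), and 8 were lower. Both are textbook genes of atrial muscle, and which chambers the heart samples held is not given in the labels. Against skeletal muscle all 13 skeletal markers were lower in aorta, among them Ckm (-11.40 ± 0.71; edgeR adjusted p = 6.66e-06), and Hoxa5 was higher by 3.28 ± 0.25 (edgeR adjusted p = 1.74e-05). All 5 tested genes of Hox groups 10 to 13 were lower in aorta than in skeletal muscle, where Hoxc10 averaged 68.3 ± 26.6 CPM on the scale of all 21 WT ND libraries, with no count in the aortas.

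**Figure D5:**
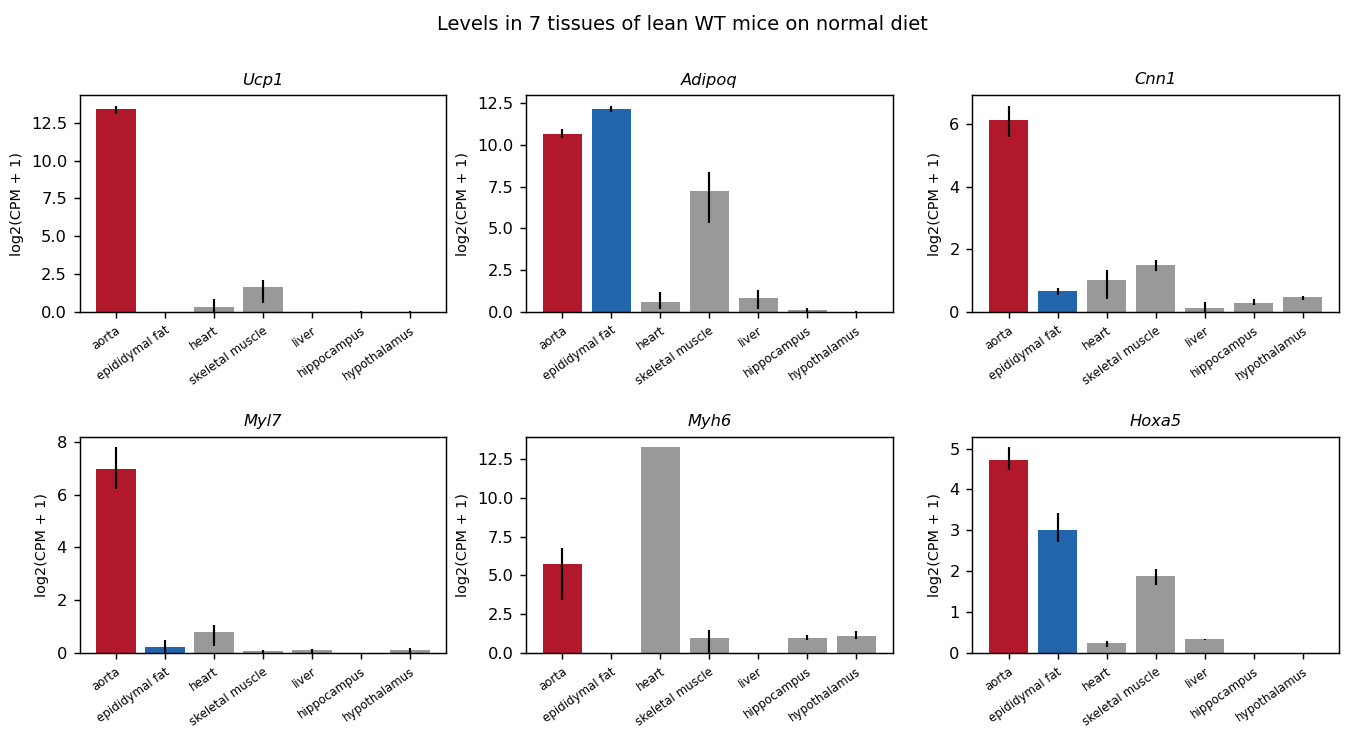
Mean level as log2(CPM + 1) of 6 genes in 7 tissues of WT ND mice (3 mice each), with lines from the lowest to the highest mouse. Ucp1, Cnn1, Myl7 and Hoxa5 are highest in aorta, Adipoq in epididymal fat (4518 CPM, with 1634 CPM in aorta and 149 CPM in skeletal muscle) and Myh6 in heart.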

How the data were processed

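Tissue was lysed in TRIzol and sequenced as TruSeq libraries on a NextSeq instrument, per the labels' protocols, whose text names hearts. The deposited values are whole-number counts of reads per gene made with featureCounts 1.5.1 without strand, per the file headers, so overlapping and antisense genes and near-identical copies are uncertain. The submitters' processing notes name Trimmomatic 0.36, HISAT2 2.0.5, featureCounts 1.5.0-p2 and GRCm38. Of 49671 gene IDs, 49326 matched a symbol.

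Samples were grouped by genotype, diet and tissue in the labels. Counts were filtered (filterByExpr, smallest count 10, smallest total 15), scaled by TMM and tested with edgeR 4.0.16 (quasi-likelihood, R 4.3.3, limma 3.58.1) with Benjamini-Hochberg adjustment; the SE is the size of the log2 difference divided by the square root of F. Each tissue pair was fitted on its 6 libraries, and the changes with genotype and diet on 24 libraries in 8 groups. A fold against a group at 0 is a lower bound from a floor of 3 counts over that group, which covers counting error only. Replicates came from separate mice, and no pair of libraries of a group agreed within sampling noise (chi-square per degree of freedom 8.90 to 52.96). The series design states that each mouse gave 7 tissues, and the titles of its samples share a mouse number, so the mouse as a block was an alternative fit. The values themselves do not show the pairing: deviations of same-numbered aorta and fat samples from their group means correlated at 0.24, -0.18 and -0.06 over 14893 genes, against -0.32 to 0.31 between different numbers. Other alternatives were DESeq2 1.42.0, other scalings, no filter, a test against a 2-fold change, and leaving out each library; leaving out mitochondrially encoded genes, and list counts without the aorta of mouse 2, were added after seeing the data. In simulated counts for the aorta and fat comparison, 42% of genes changed by 2-fold and 82% changed by 4-fold were recovered, 100 genes each among 14599 genes. Of the calls made there, 6.77% were on genes left unchanged. Only 200 genes were changed, against 7735 called in the data, so these shares need not hold for the data.

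The members and the 39 gene lists (498 genes) were chosen with earlier results of these data known. Genes were named by rule: the 8 highest and 8 lowest differences among called genes without overlap at a mean of at least 20 CPM, a set of anchor genes, the 4 most abundant of each list, and the 4 highest and 4 lowest changes with each genotype or diet. Not every gene that met the rule is described. Among the changes left out, Eef1a2 was among the 4 lowest in each group, as were Cox6a2 and Ppp1r3a in each ob/ob group. Slc5a7 had the highest change in each ob/ob group. Timp4 was among the 4 highest in WT HFD mice, and Spp1 and Serpinb9b among the 4 lowest. Named outside the rule, after their values were seen, were Ebf2, Thrb, Zfp516, Cpt1a, Plin4, Gpd1, Cebpa, Cd36, Dpt, Nampt, Nrg4, Elovl6, Srebf1, Ldhb, Slc2a4, Adrb1, Adra1a, Prkar2b, Pde3b, Mylk, Myocd, Notch3, Myl9, Mfap4, Col15a1, Col1a1, Comp, Bmx, Dll4, Hoxa4, Hoxa9, Gata4, Foxc1, Foxc2, Nfil3, Hlf, Per2, Per3, Cry2, Nppa and the surfactant genes. Promoter sequences are from RefSeq on GRCm38.p6.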

Additional observations from a re-analysis of the deposited data

Results flagged for a closer look

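The log2 difference between aorta and epididymal fat was not the same in all mice, by the interaction term of the edgeR fit. It differed from its WT ND value for 6689 genes in WT HFD mice, 4533 genes in ob/ob ND mice and 4363 genes in ob/ob HFD mice, at an adjusted p under 0.05, and these counts share the WT ND libraries.

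Among genes of adipocytes, Adipoq changed by 2.97, 2.36 and 2.20 in WT HFD, ob/ob ND and ob/ob HFD mice, and Adrb3 by 5.21, 5.96 and 5.65. In WT HFD mice Retnla changed by 6.66 and Cidea by 1.65. In ob/ob ND mice the change was 5.96 for Lep, 5.07 for Npr3, 6.22 for Fgf13 and 3.97 for Agt. A positive change means a higher level in aorta relative to fat than in WT ND mice.

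Among positional genes, Hoxc8 changed by 3.13 in WT HFD mice, and Hoxa5 by 1.31, 1.53 and 1.40 in WT HFD, ob/ob ND and ob/ob HFD mice. The macrophage gene Adgre1 changed by -3.60 and Clec4d by -8.07 in WT HFD mice. The smooth muscle gene Tagln changed by -1.13 in ob/ob ND mice.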

How the results depend on the processing

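Of 7735 genes called between aorta and fat, a test against a 2-fold change called 2218 (1372 higher and 846 lower in aorta), and library size scaling alone gave 2193 higher and 7381 lower. Other settings gave 7075 (replicate block) to 9231 (all 24 libraries) calls, with 7521 by DESeq2. Leaving out each library in turn gave 6073 to 8693. The 3 changes with genotype and diet gave 5788 to 7144 genes in WT HFD mice, 3294 to 4843 in ob/ob ND mice and 3311 to 4685 in ob/ob HFD mice. Of the named genes, Ckb (-0.40) and Thrb (-0.48) turned negative with library size scaling. Cd36, Cebpa, Fos, Pde3b, Prkar2b and Star lost their calls with the replicate block, and Eln gained one; for the change in WT HFD mice, Cidea lost its call. Leaving out 1 library ended calls of Adrb3, Cd36, Cebpa, Csf1r, Dpt, Fos, Foxc2, Mfap4, Pde3b, Pecam1, Prkar2b, Star and Zfp516, and of Cidea (WT HFD) and Tagln (ob/ob ND); the cause was not tested. With 3 mice a group, small differences were often missed on simulated data, in which far fewer genes were changed than were called here.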
